A study of Mus musculus with 4 samples.

Results

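The effect of losing Ezh2 on rod photoreceptors was examined by comparing the Cd73P library labelled Ezh2-cKO with the Cd73P wild-type library of mouse retina at postnatal day 12. A gene entered if its FPKM (fragments counted on a gene, scaled to exon length and to the library's mapped fragments) had a status of OK in both libraries, if it lay on a numbered chromosome, and if it reached an FPKM of 10 in at least 1 of the 2 libraries. Of 23021 rows in each table, 5636 met this rule. Small RNAs, which poly(A) selection captures unevenly, held 172 of these rows and were set aside, which left 5464 members. Of these, 2369 had a higher FPKM in the Cd73P than in the Cd73N fraction (rod side), 3087 had a higher FPKM in Cd73N (other side), and 8 had no usable value in a Cd73N library. The side was set on the mean of both genotypes.

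Retinas of slc:ICR background were dissociated, stained for Cd73 and sorted into a Cd73-positive (Cd73P) and a Cd73-negative (Cd73N) fraction, and poly(A) RNA of each fraction was sequenced. The 4 groups were Cd73P wild type, Cd73P Ezh2-cKO, Cd73N wild type and Cd73N Ezh2-cKO, all at postnatal day 12, with 1 library each. Mutants came from a cross of Ezh2-floxed mice with a DKK3-Cre line, and normal littermates served as wild type. This Cre is active in retinal progenitor cells from early embryonic stages, so both rods and the other cell types made by these progenitors were targeted. The number of retinas pooled at this age is not given in the sources used here. With 1 library per group, no difference could be set against the spread between replicates, and no p-value is given. A gene is said to have risen or fallen where the ratio of FPKM + 1 between genotypes was at least 1.5-fold, on the log2 scale. In sorted bulk RNA, fewer cells of a type and less RNA per cell cannot be told apart.

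Ezh2 is the main histone methyltransferase of Polycomb repressive complex PRC2, which trimethylates lysine residues of histone H3 at silent developmental genes. Rods are the dim-light photoreceptors. The transcription factors Otx2, Crx, Nrl and Nr2e3 direct their fate, and they detect light through an opsin, the G protein transducin and a cGMP phosphodiesterase. Cd73 is a surface ecto-nucleotidase, encoded by Nt5e, that marks rods and their precursors.

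Crx and Otx2 bind the letters TAATCC in front of photoreceptor and bipolar genes. These letters, read on both strands (TAATCC or GGATTA), occurred in the 250 bases before the start of 2054 of 32851 promoters in the RefSeq table (6.25%). Of the rod phototransduction members, 14 had a single promoter in that table, and 8 of them held the letters, as did 1 of 10 for the outer segment, 2 of 7 for photoreceptor transcription factors, 1 of 3 for cone, 2 of 4 for bipolar and 0 of 3 for Müller glia genes. The table matched 3941 of 5464 members by symbol (72.1%), which is too few for a count over all members, and none was made. The promoters of 3 genes of the rod phototransduction list, of the cone gene Gnat2 and of the bipolar gene Cabp5 are shown. They were chosen because these letters stand before genes of all 3 lists. Of the genes shown Guca1a rose, Gnat2 and Cabp5 fell, and Sag and Gngt1 stayed within 1.5-fold in Cd73P. Guca1a stood higher in Cd73N than in Cd73P in both genotypes. Capitals mark the letters, and the sequences run from 250 bases before the start (build GRCm38.p6) up to it, 5′ to 3′ on the gene's strand.
Sag (arrestin), chr1:87803430-87803679, plus strand: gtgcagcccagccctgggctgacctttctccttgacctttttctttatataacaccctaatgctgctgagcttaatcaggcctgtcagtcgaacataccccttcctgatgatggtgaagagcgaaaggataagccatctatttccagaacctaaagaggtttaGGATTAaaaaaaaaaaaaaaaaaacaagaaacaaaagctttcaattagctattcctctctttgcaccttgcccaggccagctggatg
Gngt1 (rod transducin gamma), chr6:3993758-3994007, plus strand: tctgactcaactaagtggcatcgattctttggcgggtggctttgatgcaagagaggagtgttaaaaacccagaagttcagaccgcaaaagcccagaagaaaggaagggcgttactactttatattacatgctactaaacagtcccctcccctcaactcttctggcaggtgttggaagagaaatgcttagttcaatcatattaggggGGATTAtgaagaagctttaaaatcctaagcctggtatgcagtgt
Guca1a (guanylate cyclase activator), chr17:47400607-47400856, minus strand: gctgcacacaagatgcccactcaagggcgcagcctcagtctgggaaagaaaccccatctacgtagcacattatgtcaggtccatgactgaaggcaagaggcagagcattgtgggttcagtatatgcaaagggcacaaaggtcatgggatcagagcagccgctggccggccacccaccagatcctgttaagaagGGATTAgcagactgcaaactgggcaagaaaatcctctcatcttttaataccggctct
Gnat2 (cone transducin alpha), chr3:108092816-108093065, plus strand: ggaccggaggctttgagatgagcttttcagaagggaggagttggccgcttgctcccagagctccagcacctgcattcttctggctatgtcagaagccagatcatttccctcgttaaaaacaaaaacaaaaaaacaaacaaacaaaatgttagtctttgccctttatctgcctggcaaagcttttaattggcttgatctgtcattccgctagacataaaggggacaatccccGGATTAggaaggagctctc
Cabp5 (calcium-binding protein of bipolar cells), chr7:13397905-13398154, plus strand: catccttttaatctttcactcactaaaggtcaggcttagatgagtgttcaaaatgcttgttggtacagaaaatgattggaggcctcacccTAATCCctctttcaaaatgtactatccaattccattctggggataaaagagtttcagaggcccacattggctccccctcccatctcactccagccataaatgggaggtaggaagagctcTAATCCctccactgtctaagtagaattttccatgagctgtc
The letters began 87 bases before the start in Sag, 44 in Gngt1, 57 in Guca1a and 19 in Gnat2. Cabp5 held them at 160 and again at 41 bases before the start. A match describes these windows and does not show a bound site.

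The sort was checked on the genes that define it. Nt5e stood at an FPKM of 125 (wild type) and 123 (Ezh2-cKO) in Cd73P, against 0.844 and 0.609 in the Cd73N libraries. Nrl, the factor that commits a precursor to the rod fate, stood at 1377 and 1615 in Cd73P and at 27.7 and 11.02 in Cd73N. Both genotypes were thus enriched for rods to a similar level of Nt5e. Ezh2 itself was low in Cd73P, at 5.38 in wild type and 3.45 in Ezh2-cKO, under the minimum for a member. In Cd73N, Ezh2 had an FPKM of 14.1 for wild type, while the library labelled Ezh2-cKO had 15.9, so no fall was seen that would match that label. These values cover the whole gene and do not report on the floxed part alone, so they cannot show whether that part was lost. The summed FPKM of 4 Y-linked genes was 27.9 in Cd73P of wild type and 0.496 in that of Ezh2-cKO, and 26.8 and 0.716 in Cd73N. Xist, from the inactive X chromosome of females, was detected in all 4 libraries, at 47.0 and 95.6 in Cd73P wild type and Ezh2-cKO. The sexes of the animals therefore differed between genotypes, and sex and genotype cannot be told apart. The 10 highest genes held 8.71% of the wild-type and 11.5% of the Ezh2-cKO FPKM sum in Cd73P.

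In Cd73P cells, 178 of 5464 members rose in Ezh2-cKO (3.26%) and 112 fell (2.05%). Over all 21993 rows with a status of OK that were no small RNA, 2.24% rose and 2.35% fell. The same members in the Cd73N fraction rose in 3.72% and fell in 2.2% of 5456 cases. Members were chosen on their Cd73P level, so these shares leave out genes that changed in Cd73N but were low in Cd73P. The median log2 ratio of all members in Cd73P was -0.04. Among rises, members that reached the minimum only in 1 library count fully, and with the minimum required in both libraries 107 rose and 55 fell.

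The rises lay mainly among genes of the rod side and the falls among genes of the other side. On the rod side 131 members rose and 22 fell, with a median log2 ratio of 0.02. On the other side 45 rose and 90 fell, with a median of -0.08. The side was set with the Cd73P values of both genotypes, so a rise in Ezh2-cKO itself moves a gene towards the rod side. Split on the wild-type libraries alone, 104 rose and 29 fell on the rod side and 72 rose and 83 fell on the other side, and the median of the rod side became -0.0068. Split on the Ezh2-cKO libraries alone, the counts were 139 and 17 on the rod side and 37 and 95 on the other side. The sign of the rod-side median thus depended on the split, while rises outnumbered falls on the rod side under all 3 splits.

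The share of genes past 1.5-fold was larger among genes far apart between fractions. This distance was taken on the same means, so a rise in Ezh2-cKO adds to it on the rod side and a fall adds to it on the other side. Among 2407 members with up to 2-fold higher FPKM + 1 in Cd73N, 0.665% rose and 0.956% fell. Among 32 members more than 4 log2 units higher in Cd73P, 10 rose and none fell. Among 24 members more than 4 log2 units higher in Cd73N, 17 fell and 5 rose. At a distance of at least 8-fold, 90 members were higher in Cd73P, of which 19 rose and 2 fell, with a median of 0.29. With the distance taken on the wild-type libraries and the minimum required in both Cd73P libraries, 87 members lay there, of which 13 rose and 2 fell. A further 55 were higher in Cd73N, of which 30 fell and 14 rose, with a median of -0.72. Under the same stricter setting 26 members lay there, of which 8 fell and 6 rose, with a median of -0.14, so the excess of falls over rises there rests largely on members under the minimum in 1 library.

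**Figure D1:**
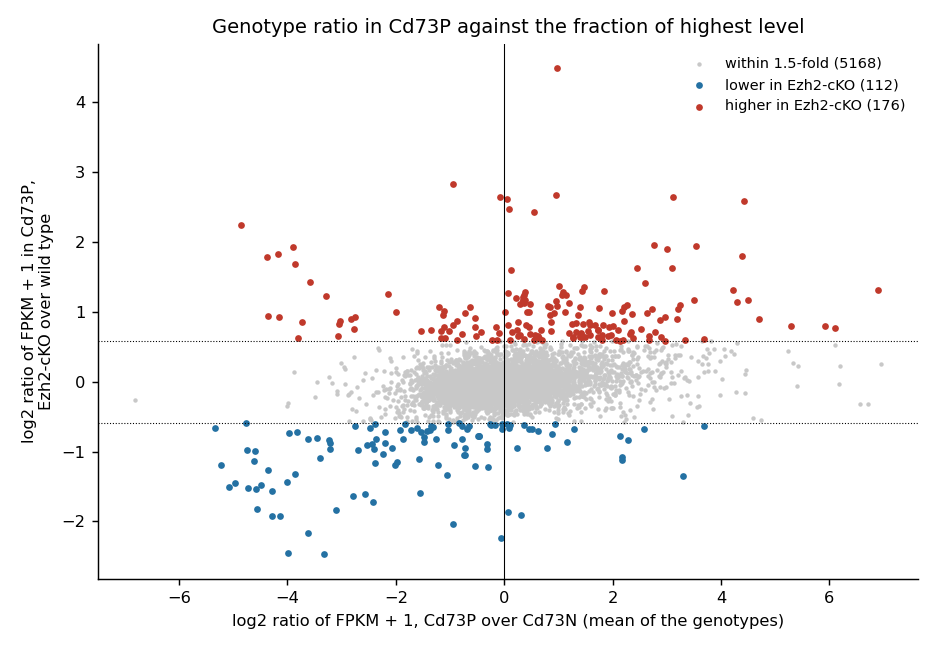
Each point is 1 of the 5456 members with a side; the x axis gives the log2 ratio of FPKM + 1 between fractions (mean of the genotypes) and the y axis the log2 ratio of Ezh2-cKO over wild type in Cd73P, with dotted lines at 1.5-fold. Red points (higher) gather to the right of 0, and blue points (lower) to the left, where red ones are also found.

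**Figure D2:**
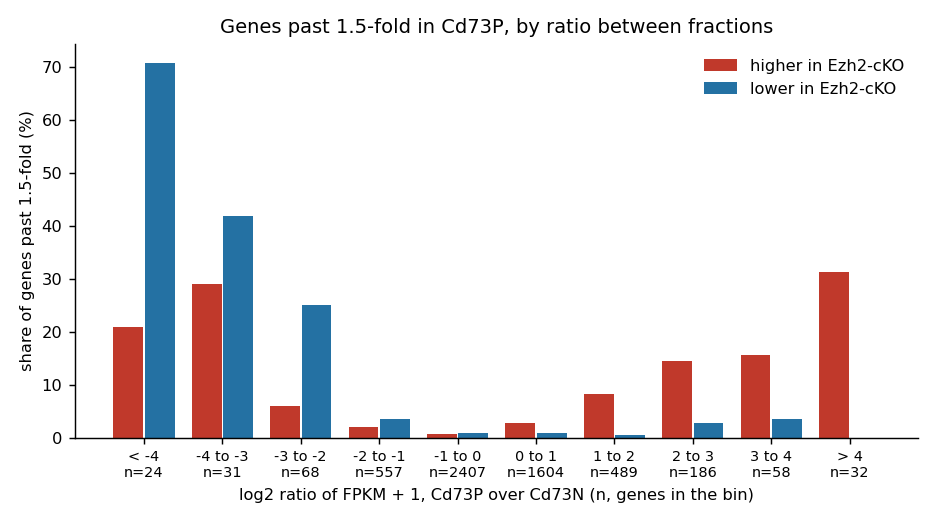
Bars give the percentage of members that rose (red) or fell (blue) in Cd73P, by bins of the log2 ratio of FPKM + 1 between fractions, with the number of genes under each bin. The axis uses the Cd73P values of both genotypes. Both ends hold larger shares than the middle, with rises alone at the right end and 17 falls beside 5 rises among the 24 genes at the left end.

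The rod phototransduction genes, which turn the capture of light into closure of the cGMP-gated channel, stood higher in Ezh2-cKO Cd73P cells almost throughout. Of 24 genes listed, 21 were members, on 22 rows. On 21 of these rows FPKM was higher in Ezh2-cKO, 4 rows rose and none fell. The median log2 ratio was 0.40 in Cd73P, beside -0.04 for all members, and 0.04 in Cd73N. In Cd73N, 6 of the 22 rows fell and 0 rose. Those falls include Gnat1, Pde6b (8.28 to 2.18) and Cnga1 (4.25 to 1.71). Gnat1, the alpha subunit of rod transducin (mm9 chromosome 9, 107576805 to 107581923), had an FPKM of 2016 in wild type and of 4999 in Ezh2-cKO (log2 ratio 1.31). In Cd73N it was at 36.2 and 20.6, a fall by 0.78 on the log2 scale. Guca1b (chromosome 17, 47522342 to 47529916), an activator of the guanylate cyclase that restores cGMP after a flash, rose by the same log2 ratio of 1.31, from 181 to 450. Its neighbour Guca1a rose from 39.4 to 70.3 and was the only phototransduction row on the other side, at 398 and 520 in Cd73N. Pde6a, a catalytic subunit of the rod phosphodiesterase, rose from 348 to 603.

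Other steps of the cascade moved the same way by less than 1.5-fold. Rcvrn, which encodes the calcium sensor recoverin, stood at 2135 and 3137 with a log2 ratio of 0.56. Pde6g, the inhibitory subunit of the phosphodiesterase, stood at 2736 and 3883, and Gngt1, the gamma subunit of rod transducin, at 1700 and 2274. Sag, the arrestin that ends signalling, stood at 4081 and 5229. The 2 rows of Cngb1 and the row of Cnga1, which encode the subunits of the channel itself, lay between 0.22 and 0.27. Pdc, encoding phosducin, had the highest level of all members, at 5501 and 6196, and a log2 ratio of 0.17. Pde6b, the second catalytic subunit, was the exception, with 650 in wild type against 522 (log2 ratio -0.32), where its partner Pde6a rose. For most of these genes the deposited FPKM lay outside its own bounds, and a counting error could not be given.

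**Figure D3:**
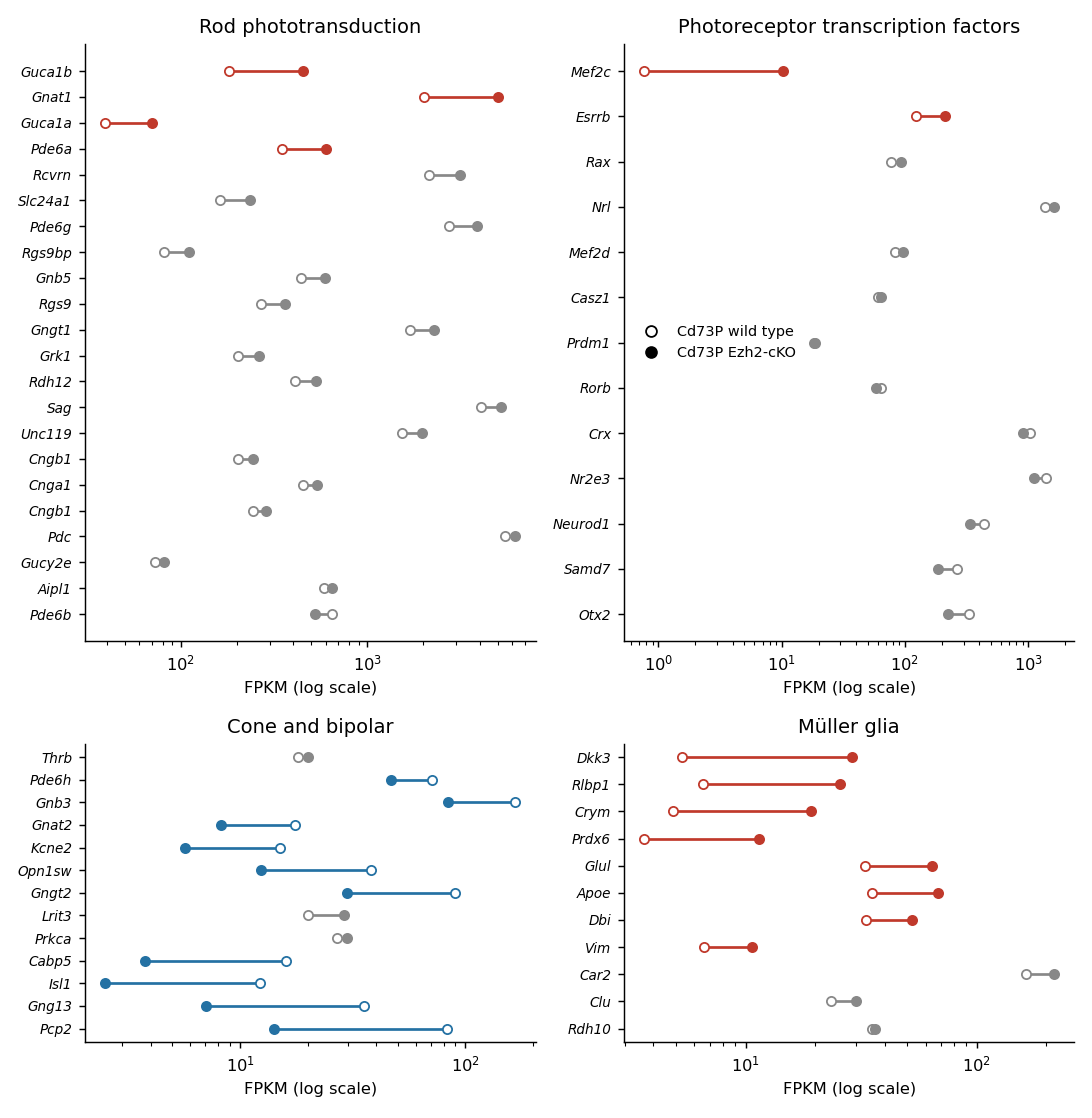
Each line joins the FPKM (log scale) of 1 gene in Cd73P wild type (open circle) and Cd73P Ezh2-cKO (filled circle), for 4 panels of gene lists, with red for genes that rose and blue for genes that fell. All rod phototransduction rows but Pde6b have the filled circle to the right, as do all 11 Müller glia genes, whereas 10 of the 13 cone and bipolar genes drawn have it to the left.

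Genes of the outer segment, the membrane stack that houses this cascade, were closer to the median. None of 14 members rose or fell, and the median log2 ratio was 0.16. Prph2 and Rom1, which shape the rims of the discs, stood at 2522 and 3093, and at 2196 and 2786. Prom1, which acts in disc formation, stood at 491 and 387, with a log2 ratio of -0.34. Genes of the rod synapse gave a median of 0.16 over 12 members, of which Cabp4 and Elfn1 rose. Cabp4, a calcium-binding regulator of the presynaptic channel, went from 94.8 to 151, and Elfn1, an adhesion protein that joins rods to bipolar cells, from 28.7 to 45.4. Among 24 members for the cilium and its transport none rose or fell, with a median of -0.0010.

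Most transcription factors that direct rod fate stayed within 1.5-fold. Over 13 members the median was 0.03, with 2 rises and no fall. Nrl stood at a log2 ratio of 0.23 and its target Nr2e3, a repressor of cone genes, at -0.32, with 1392 in wild type and 1117 in Ezh2-cKO. Crx stood at 1038 and 909, Neurod1 at 440 and 339, and Otx2 at 328 and 225, a log2 ratio of -0.54 that did not reach 1.5-fold. The rises were Esrrb, an orphan nuclear receptor of rods, from 124 to 210, and Mef2c, a MADS-box factor. Mef2c (chromosome 13, 83643033 to 83806684) went from 0.769 to 10.3, with a log2 ratio of 2.67 ± 0.05 (standard error from the deposited bounds, counting error only). Mef2c was a member through the Ezh2-cKO library alone. In Cd73N it stood at 1.85 and 2.92, so its place on the rod side also rests on its Ezh2-cKO value in Cd73P. In Cd73N, 4 of the 13 members fell and 2 rose. The falls there include Nrl (27.7 to 11.02) and Nr2e3 (16.8 to 5.09).

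Other rod-side genes with a large rise were named by a rule on size, and those under an FPKM of 10 in wild type could become members only by being higher in Ezh2-cKO. Kcnj14, an inward rectifier potassium channel, went from 30.0 to 118, and in Cd73N stood at 5.64 and 5.25. Chrna5, a subunit of the nicotinic acetylcholine receptor, went from 6.90 to 46.2, while both Cd73N libraries lay under 1. Krt18, a keratin, went from 19.1 to 122 in Cd73P and stood at 63.0 and 73.2 in Cd73N. Racgap1, a regulator of cell division, went from 7.38 to 31.6 in Cd73P. The rows 1700027A23Rik, Gm10664 and Olfr1372-ps1 each lay under 2 in Cd73P wild type and rose to between 10.8 and 16.0. In wild type Krt18, Gm10664 and Olfr1372-ps1 were higher in Cd73N (63.0, 2.99 and 4.22) than in Cd73P. These genes were thus on the rod side only through their Ezh2-cKO values.

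Further rises on the rod side were chosen after their values were seen. Drd4, the dopamine D4 receptor of photoreceptors, went from 224 to 463, and Aqp1, a water channel, from 21.5 to 76.9. Rdh8, which reduces the all-trans retinal released by bleaching, went from 78.3 to 129. Adipor1, a receptor needed for docosahexaenoic acid in photoreceptors, went from 160 to 325. Vtn, encoding vitronectin, went from 164 to 344 and Cst3, encoding cystatin C, from 1153 to 1801. Vax2, a homeodomain factor of the ventral retina, went from 20.7 to 45.0. Vax2os1 rose from 33.7 to 76.8 and Vax2os2, a member through the Ezh2-cKO library alone, from 8.02 to 26.8. Vax2os2 overlaps both of the other rows on chromosome 6 (83642800 to 83662195), and as no use of strand is stated for the counting, reads of these genes cannot be told apart.

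Falls were fewer on the rod side. Cplx2, a complexin of synaptic vesicle release, went from 48.6 to 12.6, and Kif19a, a kinesin of cilia, from 44.2 to 16.7. Cdk5rap1, which modifies tRNA, went from 15.4 to 3.39 and fell in Cd73N too, from 11.2 to 3.71. Cdk5rap1 was a member through the wild-type library alone. Nap1l1, a histone chaperone, went from 442 to 263, and Cd164, a sialomucin, from 170 to 98.6. Xrcc6, of DNA end joining, went from 39.8 to 21.4, and Klf10 and Vash1 fell by 0.96 and by 0.95 on the log2 scale.

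Cone genes fell in Ezh2-cKO Cd73P cells. Of 13 genes listed 7 were members, of which 6 fell and none rose, with a median log2 ratio of -0.99. With the minimum required in both libraries 4 of 5 fell, with a median of -0.98. Opn1sw, the short-wavelength opsin, went from 38.003 to 12.4 for a log2 ratio of -1.54 ± 0.05 (standard error, counting only). Gngt2, cone transducin gamma, stood at 90.2 and 29.8. Gnb3, its beta partner, stood at 166 and 83.6, and Gnat2 at 17.4 and 8.25. Pde6h, the inhibitory subunit of the cone phosphodiesterase, stood at 70.8 and 46.7. Thrb, the thyroid hormone receptor of cones, stood at 18.02 and 19.96. In Cd73N the same 7 members had a median of 0.32, where 1 rose (Pde6h, from 1237 to 2018) and none fell. Summed over the list, cone FPKM in Cd73P was 9.22% of that in Cd73N in wild type and 3.57% in Ezh2-cKO.

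Bipolar genes had a lower median than cone genes over all members, an order that reversed with the minimum required in both libraries. Of 21 listed 7 were members, of which 5 fell and none rose, with a median of -1.82. Pcp2, a regulator of G proteins in ON bipolar cells, stood at 82.9 and 14.1, a log2 ratio of -2.47 ± 0.11 (standard error, counting only). Gng13, a G protein gamma subunit, stood at 35.3 and 7.06. Isl1, a LIM-homeodomain factor, stood at 12.3 and 2.52 and Cabp5 at 15.9 and 3.78. Prkca and Lrit3 stayed within 1.5-fold, with FPKM in Cd73P close to that in Cd73N. With the minimum required in both libraries the median became 0.14, with 1 fall among 3 members, since 4 of the 5 genes that fell were members through the wild-type library alone. In Cd73N the median was -0.60, with 4 falls and no rise. Summed bipolar FPKM in Cd73P was 8.10% of that in Cd73N in wild type and 5.81% in Ezh2-cKO.

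Müller glia genes rose in both fractions. Of 24 genes listed, 11 were members, all higher in Ezh2-cKO Cd73P cells, of which 8 rose, with a median of 0.93. Of these 8, 5 (Crym, Dkk3, Prdx6, Rlbp1 and Vim) were under the minimum in wild type and entered through the Ezh2-cKO library. With the minimum required in both libraries 3 of 6 rose, with a median of 0.52. In Cd73N all 11 rose, with a median of 1.86. Rlbp1, which binds retinaldehyde in Müller glia, stood at 6.54 and 25.7 in Cd73P and at 115 and 499 in Cd73N. Glul, glutamine synthetase, stood at 32.8 and 63.9 in Cd73P and at 257 and 1760 in Cd73N. Apoe, the lipid carrier, stood at 35.3 and 68.1 in Cd73P, and Dbi, which binds acyl-CoA, at 33.1 and 52.4. Slc1a3, the glutamate transporter of these glia, stayed under the minimum at 3.19 and 7.64. Dkk3, a secreted protein of the Dickkopf family, stood at 5.32 and 28.8 in Cd73P and at 123 and 916 in Cd73N. The Cre line is named for this gene, and the part of the transgene in its FPKM was not tested. Summed Müller FPKM in Cd73P was 19.0% of that in Cd73N in wild type and 7.57% in Ezh2-cKO.

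The part that other cells within the gate had in the cone, bipolar and Müller values was not tested. Haemoglobin genes, of red blood cells, summed to 24.2 and 19.9 in the Cd73P libraries of wild type and Ezh2-cKO, or 0.758% and 0.671% of the Cd73N sums. Vascular genes summed to 16.6 and 12.4, and microglial genes to 49.98 and 57.8. Genes of the retinal pigment epithelium summed to 51.7 and 44.8 in Cd73P, and to 21.2 and 48.3 in Cd73N. This list held 2 members, Ttr at 32.7 and 31.4 and Dct, which fell from 11.3 to 6.63 in Cd73P. Dct was a member through the wild-type library alone. No member came from the lists of horizontal, vascular, lens crystallin or haemoglobin genes, and the amacrine list held 1 member, Slc6a9, at 24.1 and 21.4. The single retinal ganglion cell member, Nefh, stood at 7.204 and 11.4 and entered through the Ezh2-cKO library.

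Of the other-side members with a large rise, Crym and Prdx6 belong to the Müller list, and they rose in both fractions, as did Hopx and Dapl1. Mt1, a metallothionein, went from 5.39 to 13.9 in Cd73P and from 23.5 to 182 in Cd73N. Pcp4l1, a calmodulin-binding peptide, rose from 15.0 to 113 in Cd73P and stood at 140 and 107 in Cd73N. Ptprn, of dense-core vesicles, rose from 5.98 to 42.6 in Cd73P and from 15.2 to 36.5 in Cd73N. Nsg2, of neuronal endosomes, rose from 6.90 to 17.9 in Cd73P and stood at 60.4 and 55.8 in Cd73N. Among the falls besides bipolar genes, Fabp7, a fatty acid binding protein of progenitors, went from 99.8 to 20.5 in Cd73P and from 77.5 to 48.3 in Cd73N. In wild type Fabp7 was higher in Cd73P, so it was on the other side only through its Ezh2-cKO values. Pcp4 went from 57.3 to 9.70 in Cd73P. Olfm1, Igsf21 and Slc38a1 fell to between 3.52 and 4.44. These genes and Pcp4 were under the minimum in Ezh2-cKO and could be members only by being higher in wild type. Of the rises named in this paragraph, all but Pcp4l1 were under the minimum in wild type. Those could become members only by being higher in Ezh2-cKO.

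Some of the genes past 1.5-fold in Cd73P were past it in Cd73N too. Of the 131 rod-side members that rose in Cd73P, 24 rose in Cd73N, 104 stayed within 1.5-fold and 3 fell. The 24 make 18.3%, where 5.45% of all rod-side members rose in Cd73N. Of the 90 other-side members that fell in Cd73P, 22 fell in Cd73N, 61 stayed within and 7 rose. The 22 make 24.4%, where 2.59% of all other-side members fell in Cd73N. In all, 4 members rose in Cd73P and fell in Cd73N (3632451O06Rik, Esrrb, Gnat1 and Sdc3), and 8 did the reverse. Immediate early genes, which respond to handling and activity, differed by fraction. Over 10 members in Cd73P, Fos rose (25.7 to 49.5) and Egr1 (90.9 to 55.5) and Jun (26.6 to 16.6) fell, with a median of 0.07, whereas in Cd73N 8 rose with a median of 1.97.

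**Figure D4:**
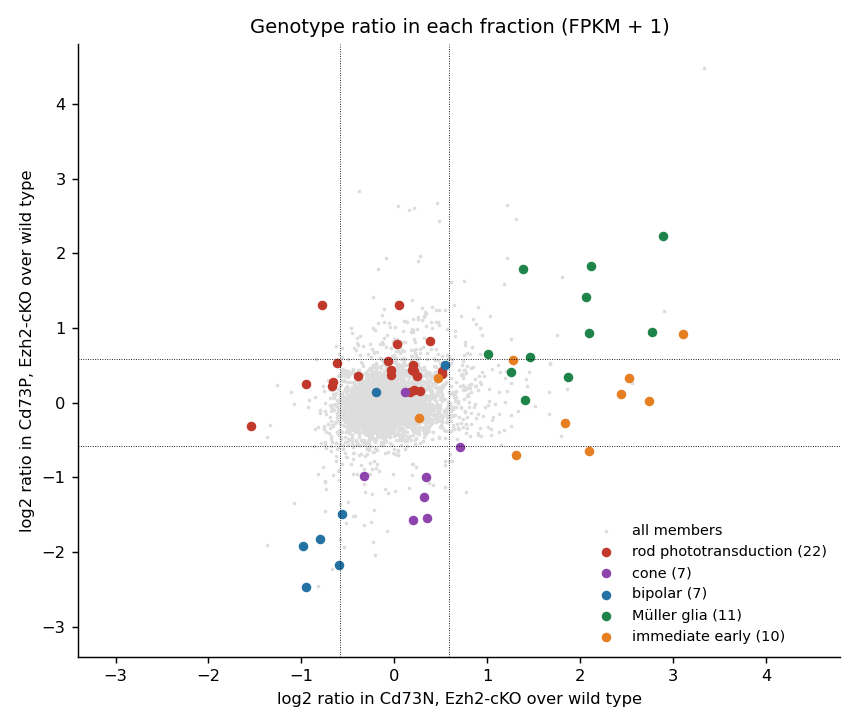
Each point is 1 member, by its log2 ratio of Ezh2-cKO over wild type in Cd73N (x axis) and in Cd73P (y axis), with dotted lines at 1.5-fold and 5 gene lists in colour. Müller genes lie to the upper right. Bipolar genes lie to the lower left apart from Prkca and Lrit3, and cone genes below 0 near the middle apart from Thrb. Rod phototransduction genes lie above 0 apart from Pde6b.

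The Polycomb genes themselves were mostly within 1.5-fold. Of 8 members for PRC2 and the H3K27 demethylases, Kdm6b (Jmjd3), a demethylase, fell from 10.2 to 5.51 and was a member through the wild-type library alone. Ezh1, the other methyltransferase of the complex, stood at 11.7 and 14.7, a log2 ratio of 0.30 ± 0.05 (standard error, counting only), Suz12 at 46.2 and 39.5 and Eed at 22.4 and 19.6. Jarid2, a partner of PRC2, stood at 52.9 and 35.6, with a log2 ratio of -0.56. Of 12 members for PRC1, 2 fell, with Cbx8, a chromobox gene, going from 18.8 to 11.2. The 10 members that stayed within 1.5-fold include Rnf2, Bmi1 and Phc1. Hox genes, which are classical Polycomb targets, gave no member, and all 39 lay under an FPKM of 1 in both Cd73P libraries. Cdkn2a, the Ink4a-Arf locus, was listed at 0 in Cd73P wild type and at 1.87 in Ezh2-cKO, beside 1.10 and 20.7 in Cd73N.

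Replication-dependent histone genes rose on 13 of 17 rows, with a median of 1.003 in Cd73P and 0.26 in Cd73N. Of the 13, 9 were under the minimum in wild type and entered through the Ezh2-cKO library, and with the minimum required in both 4 of 7 rows rose, with a median of 0.75. Hist1h1c, a linker histone, went from 59.7 to 118 and Hist1h2bc from 39.3 to 89.0. Many of these genes are near-identical copies that share short reads, and most of their transcripts lack a poly(A) tail, so the rows are not independent and their levels are uncertain. Genes of core metabolism changed little. Of 75 respiratory chain members none rose or fell, with a median of -0.0043. Of 78 ribosomal protein members 1 row, Rps4y2, rose, with a median of -0.13. Of 14 glycolysis members, 13 stood higher and Ldhb rose, from 34.0 to 51.8, with a median of 0.24 in Cd73P and -0.42 in Cd73N. Of 14 genes of the heat shock and unfolded protein responses, the chaperones Hspa5 (142 to 82.5) and Hsp90b1 (223 to 139) fell, with a median of -0.28. None of 8 members for cholesterol synthesis, 6 for p53 and cell death or 2 for the cell cycle rose or fell.

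The minimum that defines members had no gap at its edge. Lrrc41, just inside, reached 10.002 in Ezh2-cKO with a log2 ratio of 0.03, and Med15, just outside, reached 9.998 in wild type with a log2 ratio of -0.11.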

How the data were processed

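The authors aligned 36-base single-end poly(A) reads to mm9, and the submitters' processing notes name TopHat2 2.0.8b and Cufflinks 2.1.1. The deposited tables give FPKM per RefSeq gene with a lower bound, an upper bound and a status for each library. FPKM was not rescaled here. Read totals were not used here, so absolute depth is unknown, and no interval from counts was computed. FPKM lay outside its own bounds for many genes, and a standard error of the log2 ratio (bound width taken as 4 standard errors) was given only for the 3038 members inside both bounds.

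Groups were taken from the sample titles. Ratios were computed as log2((FPKM + 1)/(FPKM + 1)) with Python 3.11.15 and pandas 2.3.3, which understates changes of low genes, and genes past 1.5-fold were counted. Counting was tested on simulated data. Starts were checked against GENCODE on mm9 and 1 was added to the listed starts (10206 of 21166 then equal, 638 without).

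Genes named were Nt5e, Nrl, Gnat1 and Ezh2, genes discussed for this contrast in the study, the 10 largest rises and falls on each side among genes with 1 row, the 6 highest members of each list and the 10 highest of all. Not all genes named by this rule are reported here. Members and lists were chosen with earlier results of these data known. Alternatives were other pseudocounts, minimum levels, splits, folds, bounds and centring. Leaving out replication-dependent histones, members outside their bounds, or overlapping members, the counts by side under all settings, and other distances between fractions, were added after the data were seen.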

Additional observations from a re-analysis of the deposited data

Results flagged for a closer look

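Several results differed in direction between the Cd73P and Cd73N fractions. With 1 library per group these differences were not tested. Values are the log2 ratio of Ezh2-cKO over wild type in Cd73P minus that in Cd73N. Gnat1 rose in Cd73P (1.31) and fell in Cd73N (-0.78), a difference of 2.09. It was 1 of 6 rod phototransduction rows, of 22, that fell in Cd73N. A fall in Cd73P and a rise in Cd73N were seen for Jun (-0.65 and 2.096, difference -2.74), Egr1 (-0.70 and 1.31, difference -2.01), Cd164 (-0.78 and 0.59, difference -1.37) and Pde6h (-0.59 and 0.71, difference -1.30).

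Among gene lists, the median in Cd73P minus the median in Cd73N was -1.31 for cone genes, whose median was below 0 in Cd73P and above it in Cd73N. The difference was 0.66 for glycolysis genes, which lay above 0 in Cd73P and below it in Cd73N, and 0.35 for genes of the photoreceptor synapse, with the same signs. Smaller differences were found for photoreceptor transcription factors (0.13), for p53 and cell death genes (-0.18) and for the cilium (-0.040).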

How the results depend on the processing

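No paired analysis was possible because each group held 1 library. Of 178 rises and 112 falls, a minimum FPKM of 1 gave 450 and 467, a minimum of 10 in both libraries 107 and 55, a 2-fold threshold 65 and 41, and members with FPKM inside both bounds 83 and 64. Keeping small RNAs gave 174 falls. Rod-side rises and falls (131 and 22) became 259 and 60 at a minimum of 1, 52 and 5 at 2-fold, 86 and 9 where fractions differed at least 2-fold, and 64 and 11 inside both bounds. A minimum of 10 in both gave 80 rises there. Rod-side falls were 13 with a pseudocount of 5 and 66 with small RNAs kept. Other-side rises and falls (45 and 90) became 189 and 405 at a minimum of 1, 25 and 38 at 10 in both, 13 and 36 at 2-fold, and 17 and 53 inside both bounds. Other-side rises were 72 when split on wild type and 29 where fractions differed at least 2-fold. The rod-side median of 0.02 changed sign when split on wild type (-0.0068) and inside both bounds (-0.0078), and was 0.13 where fractions differed at least 2-fold.

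The bipolar median (-1.82) was -2.05 and -1.20 at pseudocounts of 0.1 and 5, -1.45 at a minimum of 1, 0.14 at 10 in both, -1.48 at a mean of 10 and with overlapping rows left out, and -2.04 inside both bounds. The Müller median (0.93) was 0.52 at 10 in both and 1.03 inside both bounds, and the cone median (-0.99) was -1.54 inside both bounds. Inside both bounds the medians of heat shock genes (0.029) and of p53 genes (0.0089) changed sign. Which genes a setting keeps differs by its own construction. The rod phototransduction median moved by less than 0.1 under each setting. Of 465 values of named genes under other pseudocounts and centring, none changed sign once past 1.5-fold and 9 changed side of the threshold. Counting error is the only error known for these values, and the spread between animals or sorts was not measured.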

Other observations

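Genes of cytokine signalling and glial stress were chosen here after their values were seen, apart from Stat3, Lcn2 and Irf7, which stood on lists. In Cd73P cells Jak1, a cytokine receptor kinase, stood at an FPKM of 24.3 in wild type and 44.7 in Ezh2-cKO, and its effector Stat3 at 7.42 and 16.7 (log2 ratio 1.07 ± 0.05, standard error from the deposited bounds, counting error only). Cish, a feedback inhibitor of this pathway, stood at 3.61 and 10.9, Lcn2, which encodes lipocalin, at 5.73 and 11.1, and Irf7, an interferon regulatory factor, at 5.07 and 13.7. Tnfaip3, an inhibitor of NF-kappaB signalling, stood at 39.7 and 76.5. In Cd73N, Irf7 rose from 2.43 to 5.41, and the other genes of this group stayed within 1.5-fold. The list of gliosis and photoreceptor stress held 12 genes, of which 2 were members. Its summed FPKM stood at 17.4 (wild type) and 41.5 (Ezh2-cKO) in Cd73P, and at 34.1 and 105.9 in Cd73N. The interferon list held 12 genes, of which 1 was a member. Its sums were 21.6 and 31.3 in Cd73P, and 52.0 and 82.0 in Cd73N. Stat3, Lcn2, Cish and Irf7 were under an FPKM of 10 in wild type and became members only through the Ezh2-cKO library, so their rise was favoured by the minimum.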
